A study of Rattus norvegicus with 6 samples.

Results

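The kainate receptor genes of the rat amygdala were followed after a single dose of ethanol. The group held the 5 pore-forming subunit genes, Grik1 to Grik5, and the genes of the auxiliary proteins Neto1 and Neto2. Its members were picked out by gene symbol, with earlier results of these data known, and all 7 symbols were found among the 38445 genes of the count files. Each library was made from amygdala RNA pooled from 2 adult male Sprague Dawley rats. The control group of 3 libraries came from rats given saline, and the ethanol group of 3 libraries from rats given ethanol at 1 g/kg intraperitoneally, with tissue taken 1 h after injection in both groups. The rats were wild type, and the dissection joined the central, medial and basolateral nuclei, so nuclei and cell types cannot be told apart in these values. Replicates were pools of different rats, and pooling hides the spread between individual animals. The libraries held 62576504 to 70755739 reads assigned to genes.

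Kainate receptors are tetrameric cation channels opened by glutamate. GluK1, GluK2 and GluK3, the products of Grik1, Grik2 and Grik3, form working channels alone, whereas GluK4 and GluK5, the products of Grik4 and Grik5, bind agonist with high affinity and need one of the first group to reach the surface. Neto1 and Neto2 are transmembrane proteins that slow the gating of the channel and shape its agonist affinity and synaptic placing. In the amygdala these receptors act both on postsynaptic cells and on transmitter release, GluK1 being best known on the interneurons and principal cells of the basolateral nuclei, and native kainate receptors are known to be inhibited by ethanol in brain slices. The comparison asked whether the mRNA of these genes differed between saline and ethanol at this early time.

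The promoter windows of 3 members are printed here as examples of how the starts of these genes differ in base composition. Grik4, not printed, had the lowest G and C content, at 44%. Grik3 and Neto2 had the most GC boxes of the group, and Grik2, like Grik1 and Grik4, had none. The windows run from 250 bases before the annotated start to 50 bases after it, were taken from RefSeq in build GRCr8, and are written 5′ to 3′ on the gene's strand. Capitals mark the GC box, GGGCGG or its reverse complement CCGCCC, and overlapping matches were counted separately. The Grik3 window is chr5:143052192-143052491 on the plus strand, the Neto2 window is chr19:37517305-37517604 on the plus strand, and the Grik2 window is chr20:54415234-54415533 on the minus strand.
Grik3: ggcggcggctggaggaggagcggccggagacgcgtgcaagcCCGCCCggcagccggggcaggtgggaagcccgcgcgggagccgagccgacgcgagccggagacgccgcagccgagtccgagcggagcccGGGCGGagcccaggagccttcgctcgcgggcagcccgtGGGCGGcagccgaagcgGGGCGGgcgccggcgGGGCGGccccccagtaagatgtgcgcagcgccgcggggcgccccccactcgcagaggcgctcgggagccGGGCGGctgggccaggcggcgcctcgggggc
Neto2: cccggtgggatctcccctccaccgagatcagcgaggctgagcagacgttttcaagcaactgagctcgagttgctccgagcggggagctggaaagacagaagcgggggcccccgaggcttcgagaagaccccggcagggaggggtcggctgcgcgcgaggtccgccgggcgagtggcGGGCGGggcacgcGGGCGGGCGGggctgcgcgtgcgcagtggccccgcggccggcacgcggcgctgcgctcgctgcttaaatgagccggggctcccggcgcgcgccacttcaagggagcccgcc
Grik2: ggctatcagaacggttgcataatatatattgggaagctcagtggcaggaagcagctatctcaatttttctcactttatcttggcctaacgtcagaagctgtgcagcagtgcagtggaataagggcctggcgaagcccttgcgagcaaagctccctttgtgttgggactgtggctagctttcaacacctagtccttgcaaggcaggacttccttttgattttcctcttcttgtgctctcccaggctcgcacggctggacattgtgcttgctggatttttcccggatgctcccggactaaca

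All 7 members matched a promoter window. Grik3 held 6 GC boxes, Neto2 held 3, Grik5 held 2, Neto1 held 1, and the windows of Grik1, Grik2 and Grik4 held 0. A GC box was found in 33.06% of all 33469 windows of 300 bases. The G and C content was 82.33% for Grik3, 74% for Neto2, 69% for Grik5, 60% for Neto1, 58.67% for Grik1, 50.33% for Grik2 and 44% for Grik4, against a median of 51.7% over all windows. CpG dinucleotides numbered 49 in the Grik3 window and 41 in the Neto2 window, against a median of 7. The cAMP response element TGACGTCA, held by 1.829% of all windows, the glucocorticoid receptor half-site AGAACA, held by 20.68%, and the TATA sequence TATAAA, held by 14.22%, were in none of the 7 windows when both strands were searched. The hypoxia response element core ACGTG, held by 19.25% of all windows, was found in 1 of the 7, that of Grik1. These are matches of letters in a short window and do not show binding.

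No kainate receptor gene passed the test of ethanol against control. In edgeR's quasi-likelihood test over 18141 genes, 0 of the 7 members had an adjusted p below 0.2, and the background was 0% of all genes tested. That is the threshold the study used. The study itself reported differentially expressed genes at it, so the 0% belongs to the test used here. At an unadjusted p below 0.05 the members again gave 0 of 7, where 4.15% of all genes tested, or 753, passed. Without control library 3 that count was 1 of 7, Grik1, where 570 of 18401 genes passed. The groups overlapped for each of the 7 members, while 8.85% of all genes had groups that did not. The likelihood ratio test of edgeR called 77 genes and DESeq2 called 75 at the same adjusted threshold, limma-voom called 0, and none of these tools called a member. The median log2 fold change of the 7 members was -0.01, with 3 above 0 and 4 below, and the median over all genes tested was 0.01.

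Markers of other cell types moved with the groups or with single libraries, and their part in the values below was not tested. Of 10 choroid plexus markers tested, 10 lay lower in the ethanol group. In edgeR 6 of them had an unadjusted p below 0.05, where 4.15% of all genes tested did. Their summed level was 532, 1147 and 906 CPM (counts per 1000000 reads assigned to genes) in control libraries 1, 2 and 3. In ethanol libraries 1, 2 and 3 it was 15.4, 16.0 and 493 CPM, with Otx2 at no more than 3 counts throughout. Ttr alone was at 425 CPM in ethanol library 3 and at 462 CPM in control library 1. The 8 markers of ependyma and motile cilia summed to 140 to 185 CPM in control and 123 to 128 CPM in ethanol. All 8 lay lower in the ethanol group, and 5 had an unadjusted p below 0.05 in edgeR. The 5 general neuronal markers summed to 3527 to 3995 CPM in control and 3432 to 4561 CPM in ethanol, so the groups overlapped. In these bulk samples, fewer cells of a type and less RNA per cell cannot be told apart.

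Grik1 (Rnor_6.0, the build of the counts, chr11:27811954-28213940, minus strand) encodes GluK1, the subunit most closely tied to interneurons and amygdala excitability. Its level was 37.0, 38.5 and 31.8 CPM in control libraries 1, 2 and 3, and 33.2, 31.0 and 32.8 CPM in ethanol libraries 1, 2 and 3. Control libraries 1 and 2 were above every ethanol library, but control library 3 lay among them. The means were 35.8 ± 3.48 CPM in control and 32.3 ± 1.19 CPM in ethanol (SD, n = 3 each). The log2 fold change was -0.15 with an SE of 0.08 and a 95% interval of -0.34 to 0.05, which covers folds of 0.791 to 1.03. Its unadjusted p of 0.118 in edgeR was the smallest among the members, the adjusted p was 1.0, and the exact 2-sided permutation test on the 6 libraries gave p = 0.3, where 3 against 3 cannot go below 0.1. The estimate stayed below 0 under all 13 alternative settings, from -0.22 to -0.09. Without control library 3 it was -0.22 with an unadjusted p of 0.0216 and an adjusted p of 1.0 in edgeR.

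Grik2 (chr20:53791428-54517691, minus strand) encodes GluK2, the most widely used of the subunits that can form channels alone. Its level was 50.4, 59.7 and 52.1 CPM in control and 55.3, 58.8 and 46.6 CPM in ethanol, in library order. Library 2 of each group was the highest of its group, and the ethanol group held the lowest value of all 6. Its log2 fold change was -0.01 (SE 0.10, 95% interval -0.25 to 0.22), with an adjusted p of 1.0 in edgeR.

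Grik3 (chr5:143500441-143715546, plus strand) encodes GluK3, a subunit of low glutamate sensitivity. Its level was 23.0, 18.7 and 19.1 CPM in control and 22.3, 21.0 and 18.1 CPM in ethanol, the lowest CPM levels of the group. Library 1 was the highest in each group, and the values of the groups were interleaved. For this gene the log2 fold change was 0.01 (SE 0.11, 95% interval -0.24 to 0.27), with an adjusted p of 1.0 in edgeR. The gene shares 54 bases of exon with a gene on the opposite strand, and the counting used strand.

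Of the high-affinity subunits, Grik4 (GluK4, chr8:46804134-47237546, minus strand) was the less steady between libraries. It was at 38.9, 52.2 and 38.6 CPM in control and at 33.9, 46.6 and 40.1 CPM in ethanol. Library 2 was the highest in both groups and ethanol library 1 the lowest of all. Ethanol over control gave a log2 fold change of -0.11 (SE 0.15, 95% interval -0.46 to 0.24), with an adjusted p of 1.0 in edgeR. Leaving out control library 2 turned the estimate to 0.05.

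Grik5 (chr1:81885516-81946731, minus strand) encodes GluK5, the high-affinity partner found in most native receptors of the brain, and it was the most abundant member. It was at 159, 205 and 171 CPM in control and at 192, 195 and 172 CPM in ethanol. Ethanol libraries 1 and 2 lay between the highest and the next control value, and ethanol library 3 was next to control library 3. The log2 fold change was 0.06 (SE 0.10, 95% interval -0.18 to 0.30), with an adjusted p of 1.0 in edgeR. Without control library 1 the estimate became -0.02.

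The auxiliary genes differed in how steady they were. Neto1 (chr18:83471342-83585043, plus strand) was at 67.9, 114 and 71.4 CPM in control and at 74.4, 107 and 56.8 CPM in ethanol. Library 2 was far above the other two of its group in both groups. The mean was 84.5 ± 25.7 CPM in control and 79.3 ± 25.3 CPM in ethanol (SD, n = 3 each), and the 95% interval of its log2 fold change, -0.09 (SE 0.26), ran from -0.70 to 0.52. This is the widest interval of the group and still allows folds between 0.616 and 1.43. Without control library 2 the estimate was 0.19.

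Neto2 (chr19:22450579-22486530, plus strand) was at 33.5, 31.0 and 29.9 CPM in control and at 35.0, 31.3 and 29.5 CPM in ethanol. Library 1 was the highest and library 3 the lowest in both groups, and the groups covered nearly the same range. Its log2 fold change was 0.02 (SE 0.08, 95% interval -0.17 to 0.21), with an adjusted p of 1.0 in edgeR. Raw counts of the members ran from 1208 for Grik3 to 14577 for Grik5, so counting error was 0.908 to 2.73% of a value, and the spread between libraries reached 31.9% for Neto1 in the ethanol group.

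**Figure D1:**
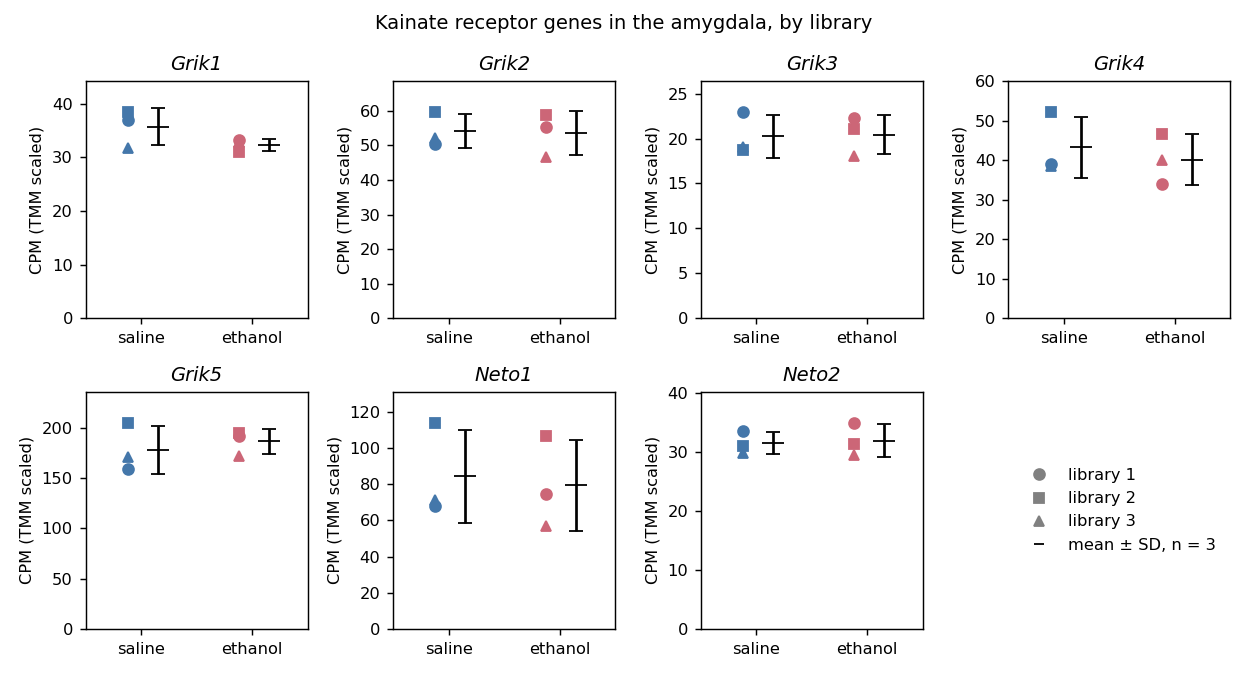
Level of each member in CPM (vertical axes, from 0) in the saline and ethanol libraries, with symbols for library number and bars for the mean ± SD of 3 libraries. The groups overlapped for all 7 genes, and Neto1 and Grik4 were highest in library 2 of both groups.

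Per exonic length the members spanned about an order of magnitude, and their order was much the same in every library. Levels between genes are given as TPM, transcripts in a total of 1000000, computed from the counts and the exonic lengths in the files. Grik5 had a mean of 126 TPM over the 6 libraries (range 107 to 145). Neto2 followed at 53.4 TPM (49.2 to 59.5), Grik2 at 45.9 TPM (39.2 to 52.0) and Neto1 at 39.1 TPM (26.8 to 55.6). Grik4 was at 18.9 TPM (15.5 to 24.2), Grik1 at 14.6 TPM (13.2 to 16.8) and Grik3 at 11.8 TPM (10.4 to 13.1). Each gene was above the next in 6 of 6 libraries, except that Neto1 was above Grik2 in control library 2 and ethanol library 2. The ranges of Neto2 and Grik2, of Grik2 and Neto1, and of Grik4 and Grik1 overlapped, so these neighbours were not separated beyond their spread. The place of Neto2 rests on a short annotated model of 1545 bases, against 6093 bases for Grik1, and on the CPM scale Neto2 ranked below Grik1. The order of Grik2 and Neto1 also depends on length, with models of 3058 and 5464 bases. By mean CPM Neto1 was above Grik2, at 84.5 against 54.1 in control and 79.3 against 53.6 in ethanol.

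**Figure D2:**
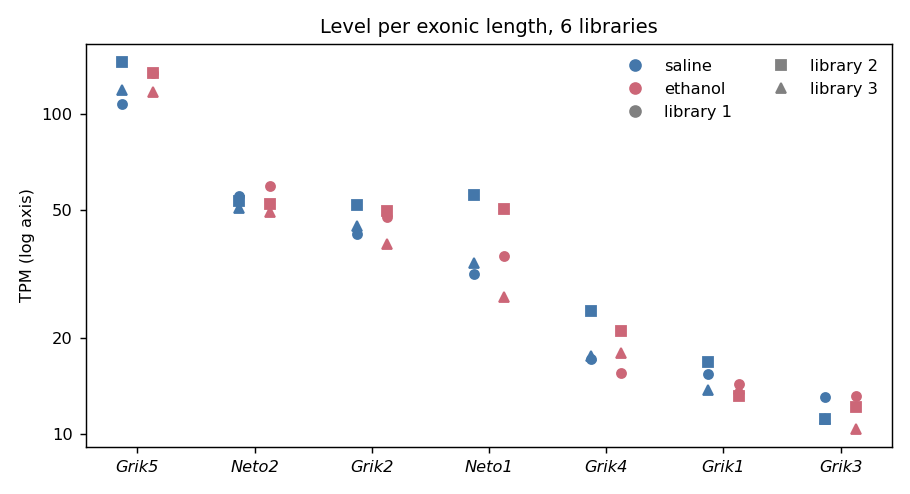
Level per exonic length in TPM on a log axis for the 7 members, ordered by their mean, with colours for treatment and symbols for library number. Grik5 sat above 100 TPM in all 6 libraries, and Grik2 and Neto1 crossed in library 2 of each group.

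The make-up of the pore-forming mRNA was steady. Grik4 and Grik5 together made up 65.9% ± 2.03 of the summed Grik TPM in control and 67.3% ± 0.755 in ethanol (SD, n = 3 each), with p = 0.4 in the exact permutation test. Grik5 alone made up 55.0, 58.1 and 57.6% in control and 59.6, 58.2 and 59.0% in ethanol. Each ethanol library lay above each control library, although ethanol library 2 and control library 2 were less than 0.1 points apart. The difference of 2.04 points had p = 0.1, the smallest this exact permutation design can give, and an adjusted p of 0.8 over the 8 shares and ratios compared. Grik2 held 21.4% of the sum in control and 20.9% in ethanol, and Grik1 7.12% and 6.37%. By counts without length Grik2 held 16.3% and 16.0%, and Grik1 10.8% and 9.74%. Neto1 made up 42.6% of the Neto TPM in control and 40.6% in ethanol, ranging from 35.3 to 51.0% over the libraries. That share and the ratio of Neto to Grik depend on the short model of Neto2, and by counts without length Neto1 made up 72.0% ± 5.99 of the Neto sum in control and 70.4% ± 6.11 in ethanol (SD, n = 3 each). The summed Neto TPM was 0.433 of the summed Grik TPM in control and 0.419 in ethanol, and by counts without length these ratios were 0.347 and 0.332. Shares within a sum are not independent of each other, and gene counts do not resolve splice forms or edited transcripts.

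**Figure D3:**
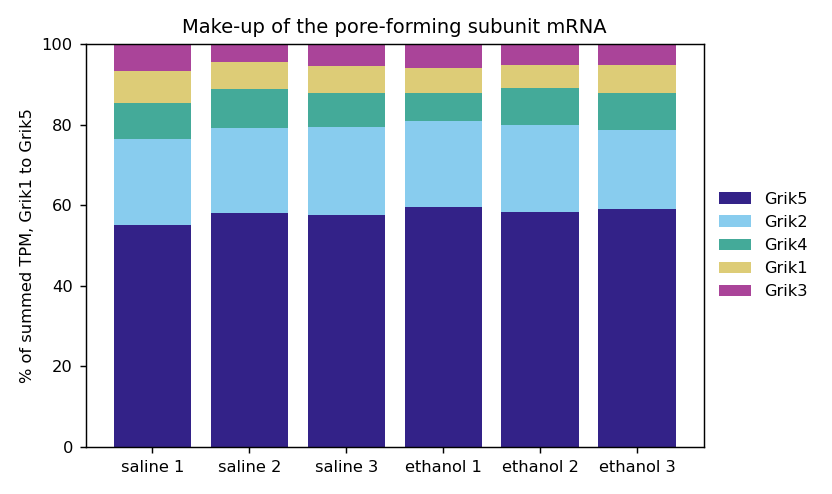
Share of each pore-forming subunit in the summed TPM of Grik1 to Grik5, in percent, as stacked bars from 0 to 100 for the 6 libraries. Grik5 made up 55.0 to 59.6% and Grik2 was second in each library.

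Libraries of the same group differed most for Neto1. Its highest CPM was 1.68 times its lowest within the control group and 1.88 times within the ethanol group. For Grik4 these ratios were 1.35 and 1.38, and for the other members they ran from 1.07 to 1.29. Relative to the control mean on the log2 CPM scale, Neto1 stood at 0.47 in control library 2 and 0.38 in ethanol library 2, and at -0.53 in ethanol library 3. Grik2 moved in the same order with a smaller amplitude, at 0.15, 0.12 and -0.21 in the same libraries. Over the 6 libraries the log2 CPM of Grik2 and Neto1 had a Pearson r of 0.96, and Grik5 and Grik4 shared part of that pattern, with an r of 0.84 between Grik2 and Grik5, 0.81 between Grik5 and Neto1 and 0.77 between Grik4 and Neto1. Grik3 and Neto2 had an r of 0.89 with each other. These are descriptions of 6 libraries that share dissection, depth and scaling, and no test was made.

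**Figure D4:**
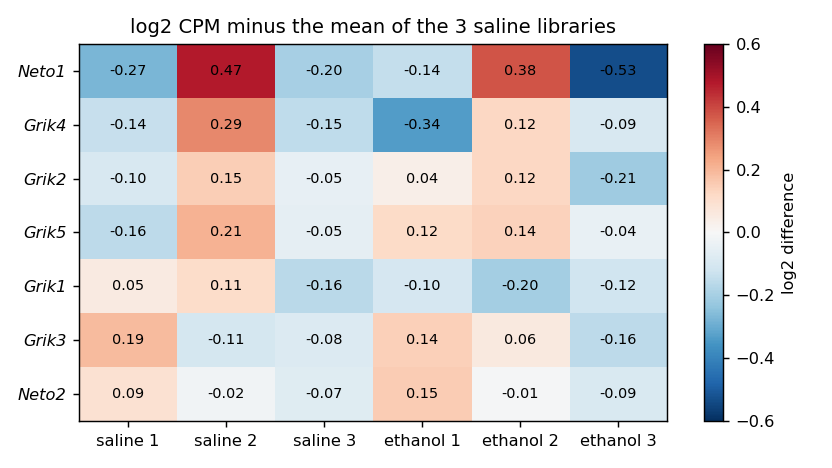
Difference of each member's log2 CPM from the mean of the 3 saline libraries (colour and printed value), with genes in rows and libraries in columns. Neto1 ran from 0.47 in saline library 2 to -0.53 in ethanol library 3, and saline library 2 and ethanol library 2 were above 0 for Neto1, Grik4, Grik2 and Grik5.

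The libraries high in Neto1 also differed in their regional and cell type markers, and the part of these in the Neto1 values was not tested. The 6 markers of cortical-type glutamatergic neurons summed to 584, 945 and 707 CPM in control and 874, 1069 and 603 CPM in ethanol. Library 2 was the highest in each group, as it was for Neto1. The 5 hypothalamic markers, which include the hormone genes Oxt, Avp, Hcrt, Pmch and Trh, summed to 113, 13.1 and 92.6 CPM in control and 29.9, 17.9 and 327 CPM in ethanol. Library 2 was the lowest in each group, and ethanol library 3, where Neto1 was lowest, was the highest of all. The 8 striatal-type markers summed to 318 to 482 CPM in control and 363 to 527 CPM in ethanol, with the lowest value of each group in library 2. The 8 oligodendrocyte markers summed to 3751 to 8753 CPM in control and 4586 to 10132 CPM in ethanol. The summed markers of interneurons, astrocytes, microglia and endothelium overlapped between the groups. Outside the choroid plexus and ependyma lists, 3 single markers had an unadjusted p below 0.05 and groups that did not overlap. They were named after their values were seen, and none had an adjusted p below 0.2 in edgeR. They were 1 of 6 cortical-type, 1 of 8 interneuron and 1 of 6 microglial markers, and the remaining lists had 0. Of all genes tested, 4.15% had an unadjusted p below 0.05 and 8.85% had groups that did not overlap. The cortical-type marker Tbr1 had a log2 fold change of 0.55, the interneuron marker Lhx6 of -0.26 and the microglial marker Tmem119 of 0.57. Other markers of these lists went the other way. The cortical-type list had 5 log2 fold changes above 0 and 1 below. The interneuron list had 3 above and 5 below, and the microglial list 3 above and 3 below.

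The genes whose pattern over the 6 libraries was most like each member's were sought among 13781 genes by Pearson r of log2 CPM, and with so many genes and so few libraries values close to 1 are common. For Neto1 they were Chst9 and C1ql2, both with r = 0.997, and 158 genes had an r above 0.95. C1ql2 is itself on the partner list, as a secreted protein that recruits kainate receptors at mossy fibre synapses, and its level was 12.5, 25.7 and 14.2 CPM in control and 14.3, 24.9 and 9.997 CPM in ethanol. It was thus highest in library 2 of each group. For Grik2 they were Magee2 (r = 0.999) and Mpp2 (r = 0.997), a membrane scaffold protein, with 293 genes above 0.95. Grik5 was most like Nova2 and Slc45a4, Grik4 most like Dll1 and Ramp2, and Grik3 most like Fgf12 and Arih1. Grik1 was most like Nfxl1 and Slc66a1, with 17 genes above 0.95, and Neto2 most like Tdrkh and the kinesin gene Kif5c, with 21.

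None of the listed partners of kainate receptors passed the test either. Of 23 listed genes, all tested, edgeR called 0 at an adjusted p below 0.2, where 0% of all genes tested passed. At an unadjusted p below 0.05 it called 0, where 4.15% of all genes tested passed, and the smallest p was 0.123. The unadjusted count was 4 of 23 without ethanol library 3, where 1629 of 18356 genes passed. Without control library 3 it was 1 of 23, where 570 of 18401 genes passed. The log2 fold change was above 0 for 16 and below 0 for 7, with a median of 0.03 against 0.01 for all genes tested. Each of the 23 had overlapping groups, while 8.85% of all genes tested had groups that did not overlap. The 8 scaffolds and PDZ partners, which anchor receptors at the synapse, ran from -0.02 to 0.09 on the log2 scale, the tightest of the larger role groups. The 4 genes of adhesion and synaptic recruitment ran from -0.10 for C1ql2 to 0.33 for C1ql3. The 4 genes of SUMO conjugation, a modification that drives GluK2 from the surface, ran from -0.04 to 0.13. The 2 RNA editing enzymes, Adar and Adarb1, which recode GluK1 and GluK2 transcripts, stood at 0.03 and 0.08. The most abundant partners per length were Snap25, a release protein that binds GluK5, at 2217 TPM, Sdcbp at 469 TPM and Dlg4, which encodes PSD-95, at 426 TPM.

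Beside the other ionotropic glutamate receptors, the kainate subunits were a minor and steady part of the mRNA. The 5 Grik genes summed to 216 ± 28.7 TPM in control and 218 ± 16.6 TPM in ethanol (SD, n = 3 each). The 4 AMPA receptor genes summed to 755 ± 81.6 and 771 ± 159 TPM, and the 7 NMDA receptor genes to 309 ± 37.5 and 326 ± 30.3 TPM. The Grik genes thus made up 15.3 to 17.8% of the summed ionotropic receptor TPM over the 6 libraries, the 2 delta receptor genes included. Of the 13 other subunits, edgeR called 0 at either level, with a smallest p of 0.0948. Over all genes tested the shares at these levels were 0% and 4.15%. The 13 had 11 log2 fold changes above 0, 2 below and a median of 0.09. At an unadjusted p below 0.05 the count was 3 of 13 without ethanol library 3, where 1629 of 18356 genes passed. With a replicate block it was 1 of 13, where 1015 of 18141 genes passed. The most abundant were Gria2 at 294 TPM, Gria1 at 266 TPM and Grin1 at 194 TPM. Grin3b was the only 1 of the 13 whose groups did not overlap, where 8.85% of all genes tested had groups that did not. It was named after its values were seen and was barely expressed, at 0.226 CPM in control and 0.330 CPM in ethanol.

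**Figure D5:**
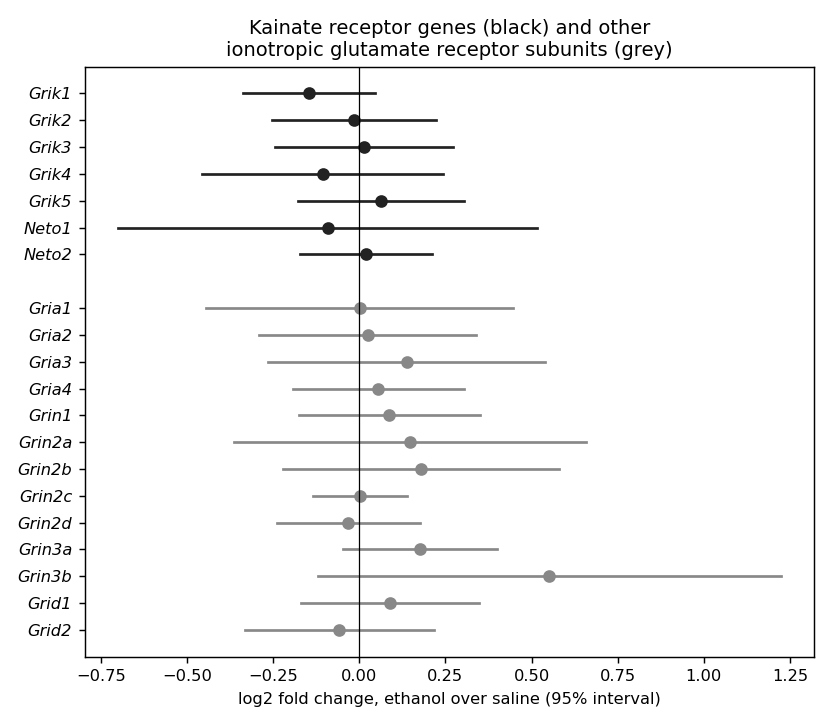
Log2 fold change of ethanol over saline with its 95% interval from edgeR for the 7 kainate receptor genes (black) and 13 other ionotropic glutamate receptor subunits (grey). Each interval crosses 0, Neto1 has the widest interval of the 7, and Grin3b the widest of all.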

How the data were processed

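Amygdala RNA of 6 libraries was sequenced from one end with a stranded mRNA kit. Per the labels and file headers, the authors aligned reads with STAR 2.7.0f to Rnor_6.0 and counted them per gene with featureCounts 1.6.3 in reverse-stranded mode, and the deposited values are these raw counts, 1 file per library. Groups were taken from the sample labels.

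Counts were tested with edgeR 4.0.16 (quasi-likelihood test, TMM scaling, filterByExpr defaults with a minimum count of 10) in R 4.3.3, and p-values were adjusted over all 18141 tested genes by the Benjamini-Hochberg method, with 0.2 as the threshold. No gene was left out of the test for lacking a symbol, though 9123 of 38445 have none. The search for genes most like a member was narrower. It took tested genes with a mean above 1 CPM and a symbol not starting with LOC or RGD. CPM values are TMM scaled, and 3 counts were worth 0.0424 to 0.0479 CPM. TPM was computed from counts and exonic length. Shares were compared by 2-sided exact permutation over 20 relabellings. Log2 CPM used a prior count of 2. The test was checked on simulated counts, with planted changes far larger than the estimate of any member. That check does not show whether differences as small as those of the members would be found.

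Alternatives were RLE scaling, library size alone, no filter, the likelihood ratio test, DESeq2 1.42.0, limma-voom 3.58.1, a replicate block, counts without length for the shares, and leaving out each library. The genes named were the 7 members, the 3 most abundant partners and other subunits with any at an unadjusted p below 0.05, the 2 genes most like each member, and marker genes; C1ql3, Adar and Adarb1 were added to show the ends or whole of a role group. The members and lists were chosen with earlier results of these data known, and the promoter windows are in GRCr8, a different build from the counts.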

Additional observations from a re-analysis of the deposited data

How the results depend on the processing

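None of the 7 members was called under any of 13 alternative settings of the test over all genes, nor was any partner or other ionotropic subunit. The number of genes called over the whole table was 0, and it became 77 with the likelihood ratio test, 75 with DESeq2, and 0 to 83 when 1 library was left out, with 83 called without ethanol library 3 and 4 without ethanol library 1. The cause was not tested. The direction of the small differences depended on single libraries for every member except Grik1. Leaving out each library in turn gave log2 fold changes of -0.22 to -0.09 for Grik1, -0.0862 to 0.0770 for Grik2, -0.0509 to 0.106 for Grik3, -0.225 to 0.0533 for Grik4, -0.0201 to 0.178 for Grik5, -0.36 to 0.19 for Neto1 and -0.0500 to 0.0742 for Neto2. With library size alone as the scaling, Grik3 turned to -0.0141 and Neto2 to -0.00716. In points, the difference in share ranged from -0.914 to 0.0418 for Grik2, -0.614 to 0.500 for Grik3 and -1.06 to 0.0420 for Grik4, and the Neto1 share of the Neto sum from -6.17 to 2.28. The Grik5 share stayed 1.07 to 2.65 points higher in ethanol, the share of Grik4 and Grik5 together 0.29 to 2.31 points higher, and the ratio of Neto to Grik moved from -0.0287 to 0.00419.

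Replicate numbers are shared by the groups but came from different rats. Same-numbered libraries correlated at 0.03 to 0.39 in their deviations from the group means over 14242 genes. Libraries of different number correlated at -0.43 to 0.31. The labels do not say whether a number marks anything shared, and this was not tested. The main test used no pairing. A fit with the replicate block called 0 genes and gave log2 fold changes of -0.14 for Grik1, -0.02 for Grik2, 0.01 for Grik3, -0.10 for Grik4, 0.07 for Grik5, -0.10 for Neto1 and 0.02 for Neto2. In the paired comparison of the Grik4 and Grik5 share the difference was 1.36 points, which groups of equal size make the same as the unpaired one. Exact sign flips of the paired differences gave p = 0.5. With the block, 1015 of 18141 genes had an unadjusted p below 0.05. The SE of the Neto1 estimate was 0.09 with the block and 0.26 without it. For Grik4 it was 0.07 and 0.15, and for Grik1 0.08 in both. Counting error was smaller than the spread between libraries for each member in both groups.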
